A study of Rattus norvegicus with 6 samples.

Results

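Neurofilament subunits and other intermediate filament genes of neural tissue were examined in RNA-seq data from the vestibular sensory epithelium of the rat inner ear. The members are 9 genes selected by symbol, Nefl, Nefm, Nefh, Ina, Prph, Vim, Nes, Gfap and Gap43, out of 32883 genes in the count table. Each symbol had a single row. Of these, 8 encode intermediate filament proteins, while Gap43 encodes a membrane-bound protein of growing axons and synaptic terminals that forms no filaments. The samples came from 6 male Long-Evans rats. In the group called IDPN-4wk, 3 rats received 20 mM of 3,3'-iminodipropionitrile (IDPN), a nitrile toxic to vestibular hair cells (HCs), in the drinking water for 4 weeks, and 3 control rats received water without it. Each library holds 1 animal, from which 2 utricles and 6 cristae were pooled, so that regions of the epithelium cannot be separated. The exposure was systemic and not aimed at a cell type, and how far each cell type was exposed was not measured.

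Neurofilaments are built from a light (Nefl), a medium (Nefm) and a heavy (Nefh) subunit, joined by alpha-internexin (Ina) in the central nervous system and by peripherin (Prph) in peripheral neurons. They fill the axon, set its calibre and travel along it by slow transport, and IDPN is a classical agent that disturbs this transport and makes neurofilaments pile up in proximal axons. In the vestibular epithelium, afferent terminals form calyces and boutons on HCs, and the cell bodies of these neurons lie in the vestibular ganglion, which is not among the tissues listed for the pools. Vimentin (Vim) is the filament of mesenchymal, glial and many supporting cells, nestin (Nes) that of progenitors and some Schwann and vascular cells, and GFAP (Gfap) that of astrocytes and non-myelinating Schwann cells.

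The libraries held 13358678 to 18561991 counts, and 14352 genes passed the filter on low counts and were tested. All levels below are normalised read counts as CPM, on TMM-adjusted library sizes, and every log2-Fold change, or log2-Fold difference, is of IDPN-4wk over control from the quasi-likelihood test of edgeR, with its standard error (SE) and Benjamini-Hochberg adjusted p (Padj). Genes with Padj under 0.05 and a fold change over 1.5 were called downregulated or upregulated. The words fell and rose are used where Padj alone was under 0.05. No transcript lengths were at hand, so that levels were compared between libraries and not between genes. HC markers were detected in every library, with summed levels of 4238 to 4446 CPM in the controls and 2535 to 3120 CPM in the IDPN-4wk rats. Where a gene is called the most counted of a list, this is by mean CPM, with no correction for length. Each library came from a separate rat, and the labels place all of them in 1 batch.

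All 9 members were tested. Gap43 was downregulated, Prph and Nefh were upregulated, and the other 6 were not called, with estimates under 1.5-fold in either direction. Across all tested genes 6.62% were downregulated (950) and 3.09% upregulated (444), so that 1 of 9 members down and 2 of 9 up are to be read beside those shares. Scaling by library size alone gave 780 downregulated and 762 upregulated genes and moved the median of all tested genes to a log2-Fold change of 0.13, with the directions of all 9 members kept. With Padj under 0.05 alone, 3 members fell (Gap43, Nefl, Nefm) and 3 rose (Prph, Nefh, Vim), where 11.5% of all tested genes fell and 7.89% rose. Ina, Nes and Gfap did not pass. In 8 of 9 members the 3 libraries of one group lay wholly above those of the other, Gfap being the exception, while 37.8% of all tested genes showed such a separation. The median log2-Fold change of the members was 0.39, compared with 0.02 over all tested genes, and 6 of the 9 values were positive. Nefh and Prph passed the filter on low counts only through their higher values in the treated animals, and Gap43 only through its values in the controls. All 3 called members therefore entered the test through the group where they were high, so that the counts of calls above are no support for a change of the members. In bulk tissue a change in the number of cells of a type and a change in RNA per cell cannot be told apart.

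**Figure D1:**
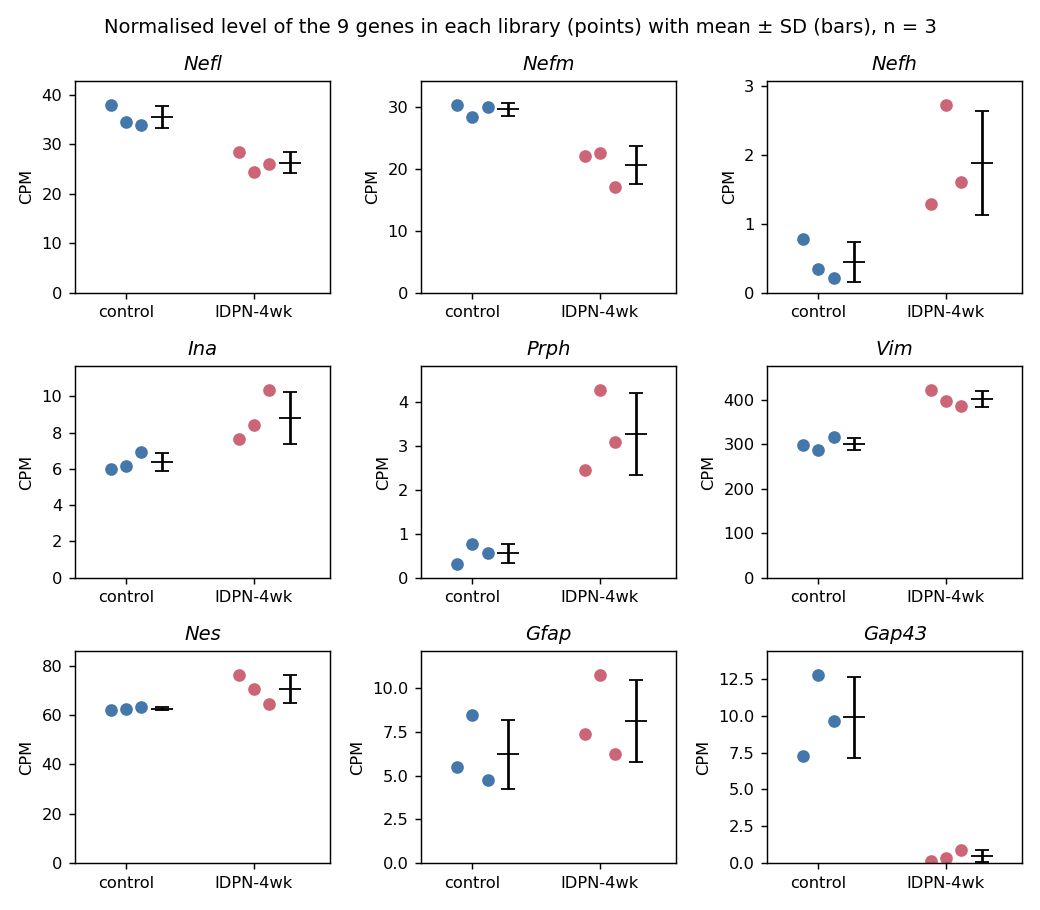
Level of each of the 9 genes in CPM (vertical axes, linear and starting at 0) in every library, with controls in blue, IDPN-4wk in red and black marks for the group mean ± SD, n = 3 rats. Gap43 drops from between 7.30 and 12.8 CPM to under 1 CPM, Prph and Nefh rise from under 1 CPM, Nefl and Nefm shift to 74.1% and 69.6% of control with no overlap, and the Gfap groups overlap.

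Gap43 (ENSRNOG00000001528) showed the largest difference among the members. The controls had 113, 183 and 136 counts and the IDPN-4wk rats had 2, 6 and 14. In CPM, the controls were at 7.30, 12.8 and 9.63 and the treated rats at 0.144, 0.309 and 0.901. The highest treated library was thus well below the lowest control, and 2 of the treated libraries were close to the limit of 3 counts. The mean fell to 4.56% of control, from 9.90 ± 2.76 to 0.452 ± 0.398 CPM (SD, n = 3). The log2-Fold change was -4.43 (SE 0.45, edgeR Padj 1.13e-04), with a 95% interval of -5.42 to -3.44. It was the value of rank 15 from the lowest among the 14352 genes tested. Leaving out the treated library with 14 counts gave -5.34, and every alternative tried kept the call, for a gene that entered the test through the control group.

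The light and medium neurofilament subunits fell by less than the fold threshold. Nefl (ENSRNOG00000013658) stood at 38.0, 34.5 and 33.9 CPM in the controls and at 28.5, 24.4 and 26.0 CPM in the IDPN-4wk rats. Its mean in treated rats was 74.1% of control, with a log2-Fold difference of -0.43 (SE 0.11, edgeR Padj 0.0157). Nefm (ENSRNOG00000013916) stood at 30.4, 28.4 and 30.0 CPM in the controls and at 22.1, 22.6 and 17.1 CPM in the treated rats. Its mean was 69.6% of control, with a log2-Fold difference of -0.52 (SE 0.13, edgeR Padj 0.0158). Both genes were lower in every treated library than in any control, and neither was called downregulated. Padj rose above 0.05 when single libraries were left out, to 0.0581 for Nefl without control replicate 1, to 0.0526 for Nefl without IDPN-4wk replicate 2 and to 0.0528 for Nefm without control replicate 3. Without IDPN-4wk replicate 2, on the other hand, Nefm passed both thresholds with a log2-Fold difference of -0.60 (edgeR Padj 0.0189).

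The heavy subunit moved in the opposite direction, from very few counts. Nefh (ENSRNOG00000008716) had 12, 5 and 3 counts in the controls and 18, 53 and 25 in the IDPN-4wk rats. These correspond to 0.775, 0.349 and 0.212 CPM and to 1.29, 2.73 and 1.61 CPM. The groups did not overlap, but the highest control and the lowest treated library were only 6 counts apart. The log2-Fold change was 2.05 (SE 0.53, edgeR Padj 0.0201), with a wide 95% interval of 0.90 to 3.21. The value ranged from 1.67 to 2.72 when any 1 library was left out, the highest without control replicate 1. The call was lost without control replicate 2 (Padj 0.0778), without control replicate 3 (Padj 0.0803) and without IDPN-4wk replicate 2 (Padj 0.0969). It was also lost when edgeR tested the difference against the fold threshold itself (Padj 0.118).

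The 3 subunits summed to 65.6 ± 3.20 CPM in the controls and to 48.8 ± 3.65 CPM in the IDPN-4wk rats (SD, n = 3), which is 74.4% of control. Within this sum, Nefh took 0.331% to 1.12% of the counts in the controls and 2.497% to 5.49% in the treated rats. The lowest treated share, 2.497%, had a 95% Wilson interval of 1.58% to 3.91%, and the highest control share, 1.12%, one of 0.641% to 1.95%, so that these closest libraries overlapped within counting error, the only error such intervals cover. The ratio of Nefm to Nefl counts was 0.800, 0.824 and 0.885 in the controls and 0.775, 0.928 and 0.658 in the treated rats. These ranges overlapped, and the mean log2 ratio differed by -0.10 (two-sided exact permutation test, p = 0.6, adjusted p = 0.75 over the 5 ratios examined). With 3 against 3 rats, the smallest p this test allows is 0.1.

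Prph (ENSRNOG00000052880), the peripheral neuron filament, was the most strongly upregulated member. The controls had 5, 11 and 8 counts and the IDPN-4wk rats 34, 83 and 48. These correspond to 0.323, 0.769 and 0.566 CPM in the controls and to 2.44, 4.28 and 3.09 CPM in the treated rats. Every treated library was over 3 times the highest control. The mean rose 5.92-fold, from 0.553 ± 0.223 to 3.27 ± 0.932 CPM (SD, n = 3). The log2-Fold change was 2.57 (SE 0.42, edgeR Padj 0.00190), and it was the value of rank 25 from the highest among the tested genes. It stayed between 2.29 and 2.88 when any 1 library was left out, and the call held in all 14 alternatives that kept the gene.

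Ina (ENSRNOG00000020248), the partner of the neurofilament triplet in central neurons, stood at 6.01, 6.15 and 6.94 CPM in the controls and at 7.62, 8.41 and 10.4 CPM in the IDPN-4wk rats. The groups did not overlap, but the log2-Fold difference of 0.47 (SE 0.19) did not pass the test (edgeR Padj 0.114, 95% interval 0.05 to 0.89 before adjustment). Relative to Nefl in the same library, Ina had 0.158, 0.178 and 0.205 counts per Nefl count in the controls and 0.268, 0.345 and 0.399 in the treated rats. This ratio was higher in each treated rat than in any control, by 0.89 on the log2 scale, at the smallest p the exact permutation test allows (p = 0.1, adjusted p = 0.167).

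**Figure D2:**
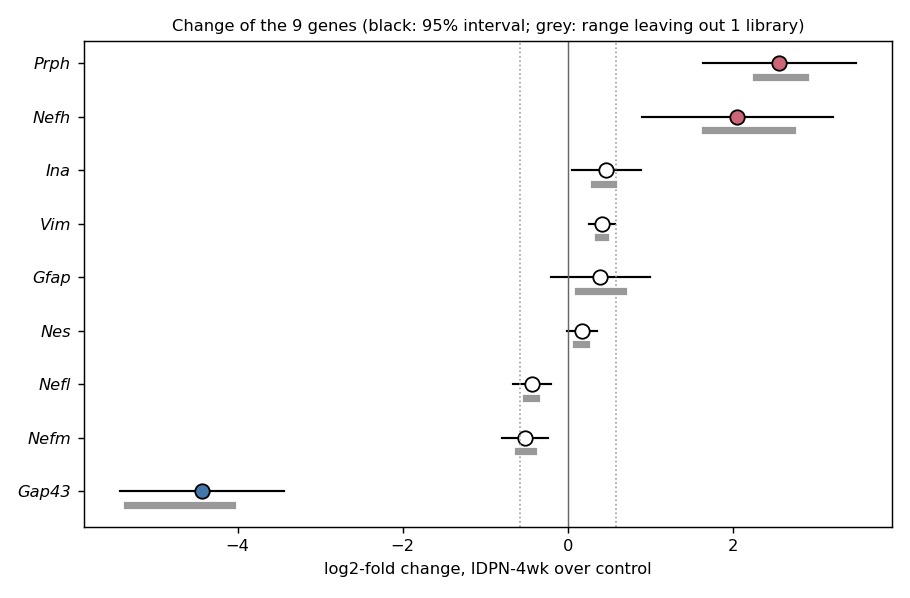
Log2-Fold change of each of the 9 genes (points, horizontal axis, filled where both thresholds were passed), with the 95% interval in black and, in grey, the range of values obtained when 1 of the 6 libraries was left out; dotted lines mark a 1.5-fold change. Gap43 lies at -4.43 and Prph at 2.57, far from 0 whichever library is left out, and the widest interval above 0 is that of Nefh, from 0.90 to 3.21.

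Among the filaments of non-neuronal cells, Vim (ENSRNOG00000018087) was at 298.9, 287 and 315 CPM in the controls and at 422, 396 and 385 CPM in the IDPN-4wk rats. All treated libraries were above all controls with a small spread, and Vim rose by 0.42 on the log2 scale (SE 0.07, edgeR Padj 0.00261). The fold change of 1.34 stayed under the threshold of 1.5. Nes (ENSRNOG00000018681) was at 62.1, 62.6 and 63.1 CPM in the controls and at 76.3, 70.6 and 64.6 CPM in the treated rats. The lowest treated library was only just above the controls, and the log2-Fold difference of 0.17 (SE 0.08) did not pass the test (edgeR Padj 0.176). Gfap (ENSRNOG00000002919) was at 5.49, 8.46 and 4.74 CPM in the controls and at 7.40, 10.8 and 6.24 CPM in the treated rats. These ranges overlapped, and the log2-Fold difference of 0.39 (SE 0.27) did not pass (edgeR Padj 0.348). Its 95% interval ran from -0.21 to 0.99, so that neither a small decrease nor a rise of nearly 1 on the log2 scale is outside it.

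Ratios taken within each library do not depend on how libraries are scaled. Nes counts per Vim count were 0.208, 0.218 and 0.200 in the controls and 0.181, 0.178 and 0.168 in the IDPN-4wk rats. The groups did not overlap, with a difference of -0.25 on the log2 scale (exact permutation test, p = 0.1, adjusted p = 0.167). The neurofilament triplet had 0.232, 0.220 and 0.204 counts per Vim count in the controls and 0.123, 0.126 and 0.116 in the treated rats. This ratio was lower in each treated rat, by 0.84 in size on the log2 scale (difference -0.84, exact permutation test, p = 0.1, adjusted p = 0.167). The ratio of Gfap to Vim differed by -0.02 on that scale, with overlapping groups (exact permutation test, p = 0.9, adjusted p = 0.9). The ratios of Nefh, Prph and Gap43 to Nefl were not formed, since at least 1 library had fewer than 10 counts of them.

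The promoters of the upregulated Prph and of Vim, which rose by less than 1.5-fold, are shown to let the position of their TATAAA matches be compared. They are the 120 bases before the annotated start in RefSeq build GRCr8, at chr7:132097169-132097288 for Prph and chr17:81577141-81577260 for Vim, both on the forward strand, written 5′ to 3′ with matches to TATAAA in capitals:
Prph: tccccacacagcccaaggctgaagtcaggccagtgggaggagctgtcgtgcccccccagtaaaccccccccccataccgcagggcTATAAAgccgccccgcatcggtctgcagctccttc
Vim: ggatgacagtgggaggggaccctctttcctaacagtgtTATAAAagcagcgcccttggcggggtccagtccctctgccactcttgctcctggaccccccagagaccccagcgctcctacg
The match begins 35 bases before the start in Prph and 82 bases before it in Vim. Of the 9 members, 5 had a promoter in the RefSeq table (Ina, Nes, Prph, Gfap and Vim), and 250 bases before each start were searched. TATAAA, searched on the gene's strand, was found in Prph and Vim and not in Ina, Nes or Gfap, and 8.06% of the 33469 rat promoters of the table hold it. CCAAT, searched on both strands, was found only in Vim among these 5 and in 34.0% of all promoters. GGGCGG, the core of the Sp1 motif, was found on either strand in Prph, Vim, Ina and Nes and in 30.5% of all promoters. The AP-1 motif TGANTCA was found in none of the 5 and in 6.34% of all. These matches describe letters and not bound sites, and the gene counts themselves carry no coordinates of this build.

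Intermediate filament genes outside the members were mostly those of epithelial cells. Of 19 listed, 17 were tested, 6 were upregulated and none downregulated, 15 had positive values, and the median log2-Fold change was 0.64. The 6 upregulated genes became 3 when either replicate 1 or replicate 2 of the IDPN-4wk group was left out. Krt15, Krt19 and Krt7 were called whichever library was left out. Beside this stands the upregulated share of 3.09% over all genes and their median of 0.02. The keratins were taken on their own only after their values were seen, so that their counts are no support for a keratin change. All 9 keratins tested had positive values, and 4 of them were upregulated. Krt5 and Krt14, neither of them called, passed the filter on low counts only through the treated rats. Krt15, a keratin of basal epithelial cells, was at 4.46, 4.68 and 5.66 CPM in the controls and at 48.1, 78.3 and 22.3 CPM in the IDPN-4wk rats, a log2-Fold difference of 3.33 (SE 0.39, edgeR Padj 2.46e-04). Every treated library exceeded every control several-fold, although the treated rats differed widely among themselves. Krt7, a keratin of ductal and other simple epithelia, rose by 2.16 on the log2 scale (SE 0.32, edgeR Padj 0.00109).

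Krt19, a keratin of simple epithelia and the most counted gene of this list, was at 327, 318 and 358 CPM in the controls and at 670, 680 and 589 CPM in the treated rats, a log2-Fold difference of 0.95 (SE 0.08, edgeR Padj 4.58e-05). Krt8, which pairs with Krt18 in simple epithelia, rose by 0.64 (SE 0.13, edgeR Padj 0.00516), although it fell short of the fold threshold without IDPN-4wk replicate 1 or replicate 2. Des, the muscle filament desmin, rose by 0.69 (SE 0.21, edgeR Padj 0.0425) and Bfsp2, a filament protein of the lens, by 1.39 (SE 0.44, edgeR Padj 0.0490), the latter with under 2 CPM in every library and past the filter on low counts only through the treated rats. When each of the 6 libraries was left out in turn, Des kept its call 1 time and Bfsp2 likewise 1 time. Krt17, a keratin of stressed epithelia singled out after its values were seen, had no count in the controls and 14, 21 and 6 counts in the treated rats. It did not pass the filter on low counts and was not tested in the main comparison. Lmna, the nuclear lamin of differentiated cells, had a log2-Fold difference of 0.44 (SE 0.09, edgeR Padj 0.00580), under the fold threshold.

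**Figure D3:**
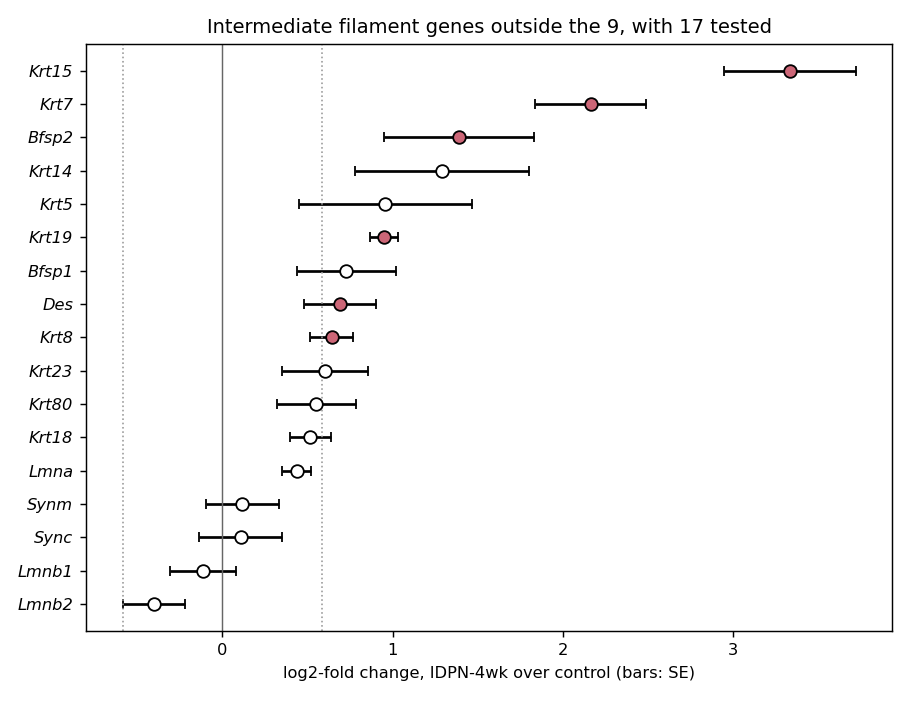
Log2-Fold change (points, horizontal axis) with SE (bars) of the 17 tested intermediate filament genes outside the 9, red where upregulated; dotted lines mark a 1.5-fold change. Krt15 at 3.33 and Krt7 at 2.16 lie farthest to the right, and the lowest value is that of Lmnb2 at -0.40, which did not pass the test.

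The counts of calls in the following lists stand beside the shares over all tested genes, 6.62% downregulated and 3.09% upregulated. Genes that link, fold or degrade filaments were mostly not called. Of 13 tested, 2 were upregulated and none downregulated, with a median of 0.15. Hspb1, a small heat shock protein that binds intermediate filaments, was at 117, 147 and 152 CPM in the controls and at 269.5, 284 and 185 CPM in the IDPN-4wk rats (log2-Fold change 0.83, SE 0.15, edgeR Padj 0.00375). Evpl, the desmosomal linker envoplakin, had under 5 CPM in every library, passed the filter on low counts only through the treated rats and rose by 1.81 (SE 0.34, edgeR Padj 0.00438). Trim2, a ubiquitin ligase that acts on Nefl and the most counted gene of this list, had a log2-Fold difference of -0.10 (SE 0.07, edgeR Padj 0.353).

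Of 15 tested kinases and phosphatases that act on neurofilaments, 1 was downregulated and none upregulated, with a median of 0.07, a share of calls like the 6.62% over all genes. It was Ppp2r2b, a neuronal regulatory subunit of protein phosphatase 2A, with a log2-Fold difference of -0.66 (SE 0.10, edgeR Padj 9.61e-04), and it held the call in 12 of 15 alternatives. The call was lost without IDPN-4wk replicate 1 (-0.58), with library size alone (-0.55) and with glmTreat, the edgeR test against the fold threshold (Padj 0.896). Csnk1d, a casein kinase and the most counted gene of the list, had a log2-Fold difference of 0.22 (SE 0.07, edgeR Padj 0.0516).

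Motors of axonal transport had a median of 0.00 over 24 tested genes, with 2 downregulated, near the 6.62% over all genes, and none upregulated. These were Kif5a and Kif5c, and 2 calls say nothing particular about the list. Kif5a, the anterograde motor that also carries neurofilaments, was at 3.49, 5.38 and 3.33 CPM in the controls and at 1.44, 2.63 and 1.80 CPM in the IDPN-4wk rats (log2-Fold change -1.03, SE 0.33, edgeR Padj 0.0490). This call held in 5 of 14 alternatives only. Kif5c, another kinesin heavy chain, had a log2-Fold difference of -0.59 (SE 0.09, edgeR Padj 0.00119), at the edge of the fold threshold, and was called in 9 of 15. The dynein heavy chain gene Dync1h1, the most counted of the list, had a value of -0.01 (SE 0.07, edgeR Padj 0.955).

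Genes of axonal microtubules and the spectrin skeleton had a median of -0.08 over 26 tested, with 2 downregulated and 2 upregulated. Ank3, the ankyrin that organises the axon initial segment, was at 96.6, 104 and 101 CPM in the controls and at 58.3, 56.9 and 61.7 CPM in the IDPN-4wk rats (log2-Fold change -0.77, SE 0.07, edgeR Padj 8.06e-05). Dpysl4, a collapsin response mediator, fell by 0.85 on the log2 scale (SE 0.17, edgeR Padj 0.00563). Tubb2b, a beta-tubulin of developing neurons, rose by 0.76 (SE 0.13, edgeR Padj 0.00281). Map1a, a neuronal microtubule-associated protein, rose by 0.59 (SE 0.18, edgeR Padj 0.0430) and kept its call in 7 of 15 alternatives. Tuba1a, an alpha-tubulin and the most counted of the list, had a value of -0.02 (SE 0.08, edgeR Padj 0.892).

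Gap43 and Prph are both used as markers of axon growth, and moved in opposite directions here. In the list of other genes of axon growth and injury, 16 genes were tested, 2 were downregulated and 4 upregulated, and the median was 0.04. The adhesion molecules Ncam1 (log2-Fold change -1.25, SE 0.14, edgeR Padj 2.15e-04) and Chl1 (-0.95, SE 0.12, edgeR Padj 3.07e-04) were downregulated. Atf3, a transcription factor induced by axon injury and other stress, was at 3.68, 4.26 and 3.68 CPM in the controls and at 11.9, 8.61 and 5.86 CPM in the IDPN-4wk rats (log2-Fold change 1.18, SE 0.27, edgeR Padj 0.0113), and its Padj was 0.0509 without IDPN-4wk replicate 1. By in situ hybridisation, the study found more Atf3 RNA in HCs of the crista after the same exposure. Which cells carried the rise in these libraries was not tested. Csf1, the growth factor of macrophages and microglia that injured sensory neurons release, rose by 1.01 (SE 0.12, edgeR Padj 3.23e-04).

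The neuropeptide gene Npy rose by 1.00 (SE 0.09, edgeR Padj 6.14e-05), and Marcksl1, a substrate of protein kinase C, by 0.65 (SE 0.09, edgeR Padj 5.55e-04). Sprr1a, Gal and Il6, further injury genes of sensory neurons, had no count in any library. Basp1 and Stmn2, growth cone proteins, stayed under 1 CPM in every library and were not tested. Among the 10 genes of the list not tested, Plaur had 6, 3 and 0 counts in the controls and 17, 42 and 9 in the treated rats. Ecel1 had 1, 2 and 2 counts in the controls and 10, 27 and 2 in the treated rats. The list thus held genes that passed in either direction, and Gap43 was farther from 0 than any of them.

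Markers of other cell types are given beside these results, since several neuronal, HC, supporting cell, Schwann cell and dark cell markers were downregulated, and their part in the results above was not tested. Of 27 tested afferent neuron markers, 13 were downregulated and 1 upregulated, and the median was -0.67. Their summed level was 1296 to 1361 CPM in the controls and 671 to 844 CPM in the IDPN-4wk rats. The neurotrophin receptor Ntrk2 fell by 1.15 on the log2 scale (SE 0.07, edgeR Padj 8.48e-06). Calb2, a calcium-binding protein of pure calyx afferents and also of type II HCs, fell by 2.16 (SE 0.18, edgeR Padj 3.66e-05). Nsg2, a neuronal endosomal protein that the study counts among HC genes, fell by 1.10 (SE 0.11, edgeR Padj 9.53e-05), and Cntn1, an axonal adhesion molecule and the most counted gene of the list, by 0.88 (SE 0.09, edgeR Padj 1.24e-04). Uchl1, a neuronal ubiquitin hydrolase, rose by 0.79 (SE 0.15, edgeR Padj 0.00476). None of these markers was at 0 in all libraries, and others besides Calb2 and Nsg2 are also expressed by HCs or Schwann cells. Of the 27 values, 6 were positive. Markers that were not called included Cntnap1 (-0.05), Tubb3 (-0.30) and Elavl4 (0.79), while Rbfox3 (-1.20) was downregulated. The mean summed level of the list was 1328 CPM in the controls and 745 CPM in the treated rats, of which Cntn1 alone made 497 and 270 CPM. Beside this, Nefl stood at 74.1% of control, Nefm at 69.6% and Gap43 at 4.56%, whereas Nefh and Prph rose.

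Of 16 HC markers, 9 were downregulated and none upregulated, with a median of -0.79. Of 13 supporting cell markers, 3 were downregulated and none upregulated, with a median of -0.34 and summed levels of 12205 to 13460 CPM in the controls and 6769 to 8288 CPM in the treated rats. Of 16 Schwann cell markers, 4 were downregulated and none upregulated, with a median of -0.42, and summed levels of 14282 to 17658 CPM in the controls and 10285 to 13950 CPM in the treated rats. Of these 4, Ncam1 was also counted in the list of axon growth and injury, and Pmp22 kept its call in 9 of 15 alternatives. Vim, expressed by glia, stroma and supporting cells, rose, while the supporting cell and Schwann cell lists had medians below 0.

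Of 11 stroma markers, 2 were downregulated and 1 upregulated with a median of -0.30, and with summed levels of 1074 to 1226 CPM in the controls and 993 to 1075 CPM in the treated rats. Of 6 endothelium markers 1 was downregulated, with summed levels of 442 to 613 CPM in the controls and 412 to 457 CPM in the treated rats. Of 10 macrophage markers 1 was upregulated, with 103 to 145 CPM and 91.1 to 177 CPM. Of 8 dark cell and melanocyte markers 3 were downregulated, with 1970 to 2537 CPM in the controls and 1414 to 1579 CPM in the treated rats. None of the markers in these lists was at 0 in all 6 libraries.

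**Figure D4:**
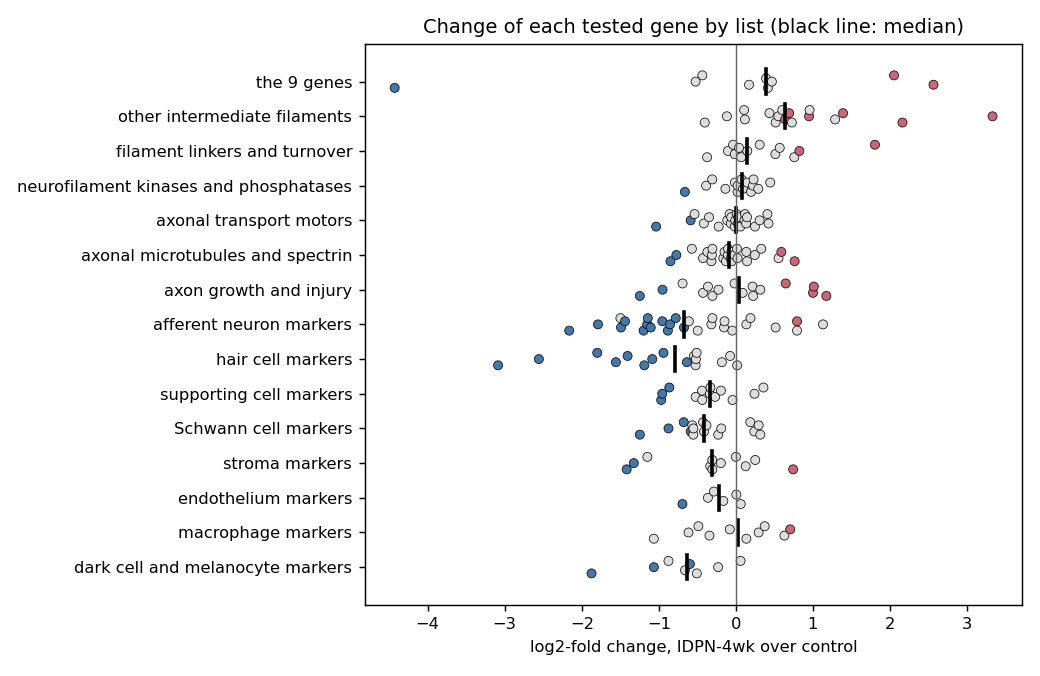
Log2-Fold change (horizontal axis) of each tested gene in the 9 genes and in 14 further lists, with downregulated genes in blue, upregulated genes in red, others in grey and a black line at each list's median. Gap43 at -4.43 lies farther to the left than any marker drawn, the other intermediate filaments lie mostly to the right of 0 with a median of 0.64, and afferent neuron and HC markers lie mostly to the left, with medians of -0.67 and -0.79.

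The genes whose profile over the 6 libraries was most like that of the neurofilament triplet were found by the root mean square distance of log2 CPM, each centred on its control mean. The nearest was Samd15, with a distance of 0.03 on the log2 scale and a log2-Fold difference of -0.46, which did not pass the test (edgeR Padj 0.199). It was followed by Cdc14a (distance 0.05, log2-Fold change -0.43), Hdhd2 (0.05 and -0.46), Cep85l (0.06 and -0.36) and Rab11fip4 (0.06 and -0.47). The distance is a description over 6 libraries of 2 groups, and 11.5% of the tested genes fell.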

How the data were processed

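RNA-seq (SMART-seq2) libraries of vestibular epithelium from 3 control and 3 IDPN-4wk rats were compared. The authors aligned reads to Rnor6.0 (STAR 2.5.3a) and quantified genes with RSEM 1.3.0, per the submitters' processing notes. The deposited values are these expected counts, whole numbers in every cell, so rounding changed none. RSEM divides reads that match several genes among them, and the protocol does not keep strand.

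Low genes were removed by filterByExpr (count 10, total 15), libraries were scaled with TMM, and glmQLFTest of edgeR 4.0.16 (R 4.3.3) was applied, two-sided, with Benjamini-Hochberg adjustment over all 14352 genes. The SE was taken from the quasi F statistic. The tests were tried on simulated data. Alternatives used other scalings and filters, DESeq2 1.42.0, limma 3.58.1 voom, glmTreat (edgeR's test against a fold threshold) and leaving out each library. Groups came from the treatment label.

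Members and lists were chosen with earlier results of these data known. Named genes were all members and, in each list, those past both thresholds (the 4 of smallest p per direction where more passed) and the one of highest mean CPM. Of marker lists, only afferent neuron genes are named by this rule. Further genes named for reference were chosen after their values were seen (Des, Bfsp2, Krt5, Krt14, Krt17, Lmna, Lmnb2, Basp1, Stmn2, Sprr1a, Gal, Il6, Plaur, Ecel1, Cntnap1, Tubb3, Elavl4, Rbfox3, Pmp22). The grouping of the keratins was also chosen then. Eppk1, Gfra1, Pecam1 and Dct, listed by symbol, were not analysed here. Promoters came from RefSeq build GRCr8, not the build of the counts, and were used for sequence only.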

Additional observations from a re-analysis of the deposited data

How the results depend on the processing

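Of 133 recomputed values of the 9 genes, none reversed, 125 kept the joint call or its absence (Padj and fold together), 4 lost it (all Nefh) and 1 gained it (Nefm without IDPN-4wk replicate 2); the other 3 (Nefl, Nefm and Vim) passed only because the fold threshold was dropped. Padj alone did cross 0.05 among these 125, for Nefl and Nefm without single libraries, for Nefl, Nefm and Vim with glmTreat, and for Ina and Nes with library size alone. Members downregulated numbered 1 to 2 when each library was left out (2 without IDPN-4wk replicate 2, which added Nefm) and 3 with Padj alone. Members upregulated numbered 1 to 2 when each library was left out (1 without control replicate 2, control replicate 3 or IDPN-4wk replicate 2), 1 with glmTreat and 0 with a mean count of at least 50, a filter that removes Nefh and Prph. Over all genes, glmTreat gave 354 downregulated and 99 upregulated, and Padj alone 1646 and 1132. Library size alone gave 780 and 762 in place of 950 and 444, with the median of all genes at 0.13 in place of 0.02; under that scaling, Ina (Padj 0.0467) and Nes (Padj 0.0337) passed Padj alone. Other intermediate filaments upregulated numbered 3 with glmTreat and from 3 to 7 when each library was left out (3 without IDPN-4wk replicate 1 or 2), and their median ranged from 0.55 to 0.77 (highest without control replicate 2). Counts near 0 limit Nefh, Prph and treated Gap43. No paired analysis was made, since control and treated libraries came from separate rats and the labels name no pairs. Replicate numbers follow the order of the samples. Animal codes in the titles share a prefix within the treated group, and what it marks cannot be told apart from treatment.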
